A study of Glycine max with 4 samples.

Results

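Chromosome 13 of soybean is described here as the partner of chromosome 8 in a reciprocal translocation of a high-sucrose and low-oil mutant. Its members were the 57561 array probes whose deposited position lies on chromosome 13, out of 951615 probes on all 20 chromosomes. Mutant leaf DNA was labelled with Cy3 and hybridized with Cy5-labelled leaf DNA of the parent M92-220 on 1 array per plant. The mutant plants belonged to 2 lines from the fast neutron population of M92-220: CM7F040P06 (P06, plants 35 and 45) and CM7F040P05 (P05, plants 15 and 39). The same reference DNA, labelled M92-220-Long, was used on all 4 arrays. The study gives the name of P06 to its translocation mutant, and the primers of the translocation assay carry it too, while the labels of single plants do not state whether a plant carried the translocation. With 2 plants per line, every p-value below measures only the spread between these plants.

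Fast neutrons break chromosomes, and the broken ends can rejoin within a chromosome or with another one. A reciprocal translocation exchanges the ends of a pair of chromosomes. If the exchange is balanced, each sequence keeps its copy number and only its neighbours change. In a plant that receives only 1 of the exchanged chromosomes, one end is present in excess and the other is deficient. The study found no such plants among the progeny of its backcross. Array comparative genomic hybridization compares how much DNA binds to each probe, so it reads dosage and not position. A log2 ratio of 0.58 corresponds to 3 copies against 2, and a log2 ratio of -1.0 to 1 copy against 2.

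The sequences that define the rearrangement on the chromosome 13 side are the primers of its PCR assay. The study paired P06_Chrom13_F2 with P06_Chrom13_R2 for the unbroken chromosome. P06_Chrom13_R1 and P06_Chrom13_F1 were each paired with a chromosome 8 primer for the joined ends. They are shown because they flank the break, which the study located from paired sequencing reads and from Sanger sequencing of PCR products. It reports a deletion of only a few bases near the break on chromosome 13. The capitals mark the 5 bases at the 3′ end, from which the polymerase extends.
P06_Chrom13_F2: tgggcttgaatggtgACTCC
P06_Chrom13_R2: atcctacaaaccaatccGTGAA
P06_Chrom13_R1: acatcacttgatgactcCAGCA
P06_Chrom13_F1: atgaacttggcacctCTCCC
P06_Chrom08_R1: aagcaattgagtccacatGGCTA
P06_Chrom08_F1: actcttgctggagacTTGGC
The 4 chromosome 13 primers were 20 to 22 bases long. Their position among the probes was not determined here, since no genome of the array's build and no probe sequences were used. Dosage was therefore compared across every 1 Mb boundary of the chromosome, so that the boundary next to the break was among those tested wherever the break lies.

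On chromosome 8, a probe of the array lies in the gene that the translocation interrupts, a KASI gene of fatty acid synthesis. This probe serves as a check of the labels, and other probes of that gene were not examined here. There the ratio stood at -6.38 and -6.77 for plants 35 and 45 of P06, against -6.49 and -0.03 in plants 15 and 39 of P05. Plant 15, labelled P05, was thus as low at this probe as both plants of P06, and only plant 39 was near 0. The study reports the probe as low in every replicate hybridization of its mutant, which were fewer than the arrays here. It does not say which plants these were. P06 minus P05 thus does not separate the plants that were low at this probe from the one that was not. Differences between the lines are for this reason given below with both plants of P05, and also without plant 15. Around that probe, the 45846 chromosome 8 probes to its right averaged 0.07, 0.07, 0.07 and 0.04 above the 11275 to its left (plants 35, 45, 15 and 39).

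The probes spanned chromosome 13 from position 399 to position 45871288 (build Glyma.Wm82.a2.v1). They were 45 to 60 bases long, with a median of 461 bases from start to start, and covered 7.24% of the 45.9 Mb. Coverage was uneven. The first 10 Mb held 408 probes per Mb, and the remainder held 1491 per Mb. There were 269 stretches of over 10 kb without a probe, together 18.9% of the span. The longest was 645 kb, between 3503041 and 4148386, and the next was 370 kb, between 6340760 and 6711105. A change confined to these stretches was not detectable. Cy5 was well above background for 99.0 to 99.5% of the probes on every array, and the spread between successive probes was 0.15, 0.16, 0.12 and 0.13 in plants 35, 45, 15 and 39.

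The whole chromosome lay close to the array median in every plant. Averaged over all its probes, the log2 ratio stood at -0.015 and -0.010 for plants 35 and 45 of P06, and at -0.010 and 0.0037 for plants 15 and 39 of P05. The lines averaged -0.013 ± 0.0032 in P06 and -0.0034 ± 0.010 in P05 (SD, n = 2 each), and the values of the single plants of both lines lay within 0.02 of each other. The other 19 chromosomes ranged from -0.08 to 0.03 on the arrays of both P06 plants, from -0.05 to 0.03 on that of plant 15 and from -0.01 to 0.03 on that of plant 39. The lowest of them was chromosome 7 in plants 35, 45 and 39 and chromosome 10 in plant 15. Between 4 and 7 of the other chromosomes were lower than chromosome 13 on each array. Chromosome 13 as a whole was therefore neither the lowest nor the highest chromosome in any plant.

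**Figure D1:**
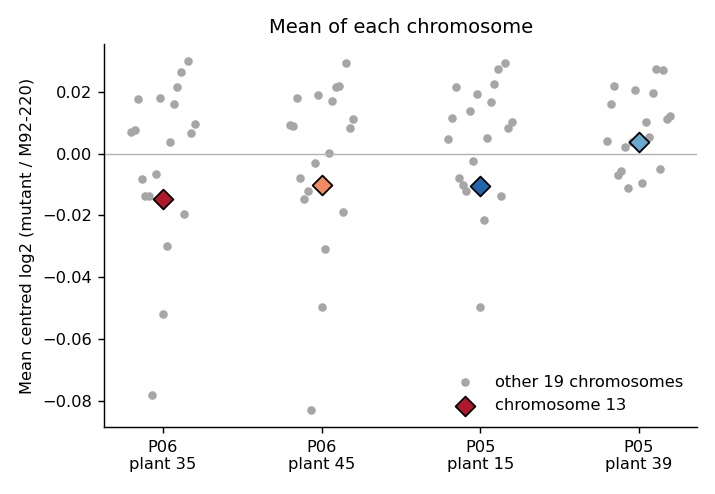
Mean centred log2 ratio (mutant over M92-220) of each chromosome, by plant; diamonds are chromosome 13 and grey points are the other 19 chromosomes, spread sideways for legibility. Chromosome 13 lies between -0.015 and 0.0037, inside the range of the other chromosomes in all 4 plants.

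Along the chromosome, the 45 bins of 1 Mb with at least 100 probes followed a similar course in all 4 plants. In 43 of the 45 bins every plant stayed within 0.1 of 0. The lowest bin was 6 to 7 Mb in each plant, at -0.13 and -0.17 in plants 35 and 45 of P06, and at -0.17 and -0.23 in plants 15 and 39 of P05. It held 388 probes, and its median Cy5 intensity was 1699, against 1055 over the chromosome. The highest bin was not the same in each plant. In plants 35 and 45 of P06 it was 5 to 6 Mb, at 0.07 and 0.09. In P05 it was 14 to 15 Mb in plant 15, at 0.07, and 31 to 32 Mb in plant 39, at 0.08. At 5 to 6 Mb, plants 15 and 39 stood at 0.03 and 0.02. The range between the highest and the lowest plant had a median of 0.03 over the bins and was largest, at 0.10, in the bin from 6 to 7 Mb. The bin farthest from 0 in any plant thus stood at -0.23.

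**Figure D2:**
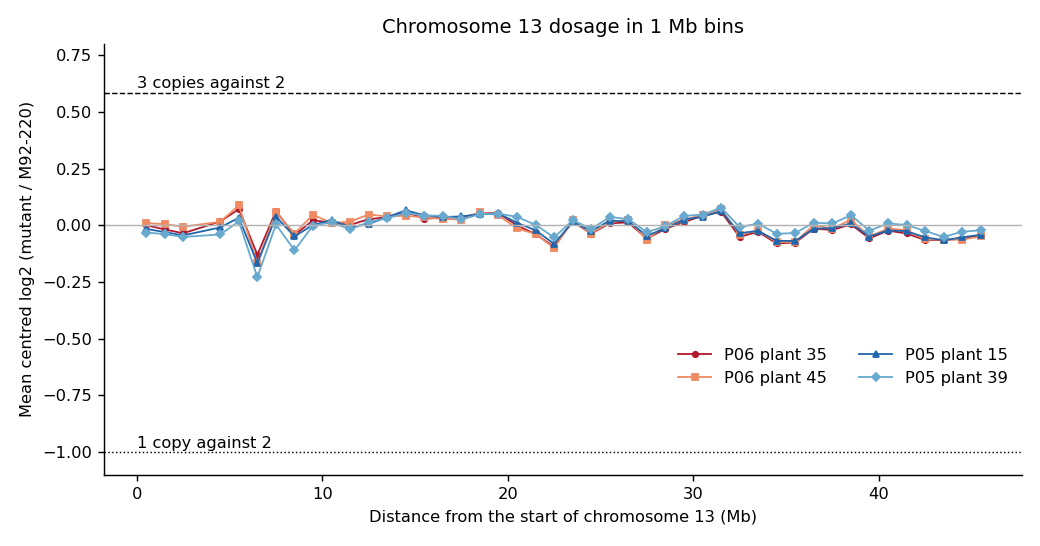
Mean centred log2 ratio of the probes in 1 Mb bins against distance from the start of chromosome 13, 1 line per plant (bins with at least 100 probes). Dashed and dotted lines mark 3 copies and 1 copy against 2; the bins of all 4 plants lie between -0.23 and 0.09.

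If an end of chromosome 13 were present in excess or deficient, the mean of all probes to the right of the break would differ from the mean of those to the left. This step, right minus left, was measured at 45 boundaries spaced 1 Mb apart. The steps ran from -0.05 to 0.0044 in plant 35 and from -0.06 to -0.0055 in plant 45 of P06. They ran from -0.05 to 0.03 in plant 15 and from -0.04 to 0.06 in plant 39 of P05. On the other chromosomes of the same arrays, steps reached from -0.21 to 0.14 for plant 35, from -0.23 to 0.13 for plant 45, from -0.12 to 0.12 for plant 15 and from -0.33 to 0.10 for plant 39. The steps of chromosome 13 thus lay inside the extremes of the other chromosomes, which were taken over many more boundaries. The ranges of the 4 plants overlapped, but at each of the 45 boundaries plant 39 had the highest step.

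The lowest step of P06 was -0.05 at 42 Mb (95% interval -0.06 to -0.04), and its highest was -0.00070 at 7 Mb (-0.03 to 0.03). In P05 the lowest step was -0.04 at 43 Mb (-0.06 to -0.03), and the highest was 0.05 at 7 Mb (0.02 to 0.07). Over all 45 boundaries the interval of P06 stayed between -0.07 and 0.03 and that of P05 between -0.06 and 0.07. Neither 0.58 nor -1.0 lay in the interval of any boundary. With limma's treat test against 0.25, 0 of 45 boundaries passed in P06, P05 or P06 minus P05, and 0 did at an unadjusted p under 0.05. Over the genome treat called 0% of 933 boundaries in each of these. Against 0, limma eBayes called 31 steps lower and 0 higher in P06, beside 39.7% lower and 41.9% higher over the genome. These were 68.9% and 0% of the boundaries of chromosome 13. It called 19 lower and 7 higher in P05, 42.2% and 15.6%, beside 36.2% lower and 36.8% higher over the genome. The boundaries of a chromosome share most of their probes, so their calls are not independent.

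Between the lines, the step differed by less than 0.05 at every boundary. The most negative difference, P06 minus P05, was -0.05 at 10 Mb (95% interval -0.09 to -0.0069). There the step was -0.00044 and -0.0094 in plants 35 and 45 of P06, against 0.02 and 0.06 in plants 15 and 39 of P05. The smallest difference was -0.0042 at 43 Mb (-0.02 to 0.01). Against 0, limma eBayes called 0 of 45 differences after adjustment, beside 0% over the genome, and 14 at an unadjusted p under 0.05. All 14 were negative, beside 7.72% of boundaries over the genome. Without plant 15 the difference was -0.07 at 9 Mb (-0.08 to -0.05), limma eBayes called 41 of 45 negative, beside 35.3% negative and 35.6% positive over the genome, and treat again called 0. Without plant 39 it was -0.03 at 6 Mb (-0.05 to -0.0087), its most negative value, and eBayes and treat both called 0. At each of the 45 boundaries the step was highest in plant 39. The 41 calls therefore rest on the array of plant 39 as the only one of its line, and what made that array differ was not tested.

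**Figure D3:**
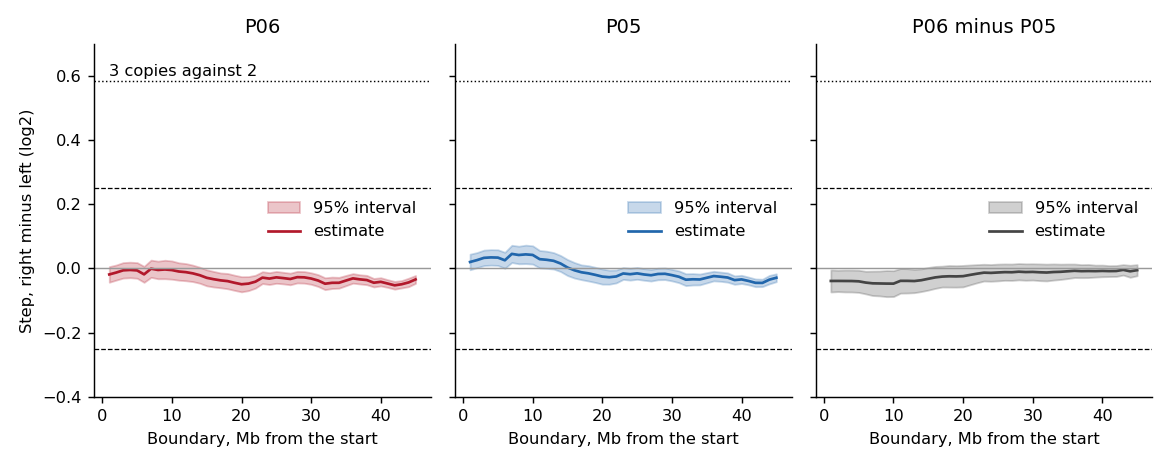
Step in mean log2 ratio, all probes right of a boundary minus all probes left of it, at 45 boundaries of chromosome 13, for P06, P05 and P06 minus P05. Lines are limma estimates and bands 95% intervals; dashed lines mark 0.25 on either side of 0 and the dotted line 3 copies against 2, and every band stays between -0.09 and 0.07.

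Dosage was then followed in 424 windows of 100 kb with at least 10 probes. Of the P06 means, 83.7% lay within 0.1 of 0, and of the P05 means 88.9%. The difference P06 minus P05 lay within 0.1 of 0 in all 424 windows, between -0.09 and 0.09. Its SD over the windows was 0.03. Over all 20 chromosomes it was 0.28, with the 0.311% of windows that treat called lower in P06 minus P05 included. No window had an interval that held 0.58 or -1.0, in either line or in the difference. The typical half-width of the interval was 0.03 for a line and 0.04 for the difference.

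Windows high or low in one plant were so in the others. Over the 424 windows Pearson's r between plants was 0.96 for plants 35 and 45 of P06 and 0.92 for plants 15 and 39 of P05. Across the lines it was between 0.85 and 0.95. These are descriptions over windows, which share each array, the reference DNA and the brightness of their probes. The same windows also followed brightness. Pearson's r between the window ratio and its log2 Cy5 intensity was -0.62, -0.66, -0.62 and -0.65 in plants 35, 45, 15 and 39, and -0.12 for P06 minus P05. Cy5 is also the denominator of the ratio, so error in Cy5 alone gives a negative r, and its part was not tested. With a trend on the mean of both dyes removed, the SD of the P06 window means was 0.069, against 0.078 before.

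The lowest window of P06 was 8.4 to 8.5 Mb, with 28 probes. It stood at -0.59 and -0.59 in plants 35 and 45 of P06, against -0.50 and -0.72 in plants 15 and 39 of P05. All 4 plants were low and the lines overlapped. By limma's treat test it was called in P06 (adjusted p = 0.045) and not in P05 (adjusted p = 0.13), although the mean of P05 was lower, at -0.61, than that of P06, at -0.59. The difference was 0.02 (95% interval -0.14 to 0.19, eBayes adjusted p = 0.84). The spread in this fit was shared with P05, whose plants lay farther apart. Without plant 35 or without plant 45 the P06 mean stayed at -0.59, but the window was no longer called. It was still called by treat with normexp background correction (-0.46, adjusted p = 0.00033) and as a median of its probes (-0.83, adjusted p = 0.015). It was also called from the arrays of P06 alone (limma treat adjusted p = 1.1e-06). Its median Cy5 intensity was 6030, and with the brightest 1% of all probes left out its P06 mean was -0.16 (adjusted p = 1.0). The part of brightness in this window was not tested further.

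This was the 1 window called lower in P06 on chromosome 13, beside 0.392% of windows over the genome, with 0 called higher, beside 0.0346%. In P05, treat called 0 lower, beside 0.0692%, and 0 higher, beside 0.0231%. At an unadjusted p under 0.05 the counts were 1 lower and 0 higher in P06, beside 0.634% and 0.161%, and 1 lower and 0 higher in P05, beside 0.242% and 0.196%. Against 0, limma eBayes called 146 lower and 141 higher in P06, beside 25.1% and 45.8% of windows over the genome. It called 137 lower and 143 higher in P05, beside 25.4% and 39.4%. For P06 minus P05, treat called 0 of 424, beside 0.311% lower and 0% higher over the genome, and 0 at an unadjusted p under 0.05. By eBayes 0 differences passed after adjustment, beside 0.323% lower and 0.0115% higher. At an unadjusted p under 0.05 eBayes gave 40 lower and 37 higher, beside 6.9% and 15.4%.

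The window differences were also taken without plant 15. P06 minus plant 39 then ran from -0.11 at 20.7 Mb to 0.14 at 8.4 Mb. Treat again called 0 windows, and limma eBayes called 3 lower and 4 higher, beside 0.819% and 1.52% over the genome. Without plant 39, P06 minus plant 15 ran from -0.09 at 8.4 Mb to 0.09 at 12.5 Mb, and both tests called 0. The window at 8.4 Mb was thus the highest difference against one plant of P05 and the lowest against the other.

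The other low windows of P06 were far closer to 0. The window from 6.1 to 6.2 Mb stood at -0.20 and -0.26 in plants 35 and 45, against -0.24 and -0.32 in plants 15 and 39. That from 22.5 to 22.6 Mb stood at -0.19 and -0.20 in plants 35 and 45, against -0.16 and -0.10 in plants 15 and 39. The windows from 12.9 and from 44.8 Mb had P06 means of -0.17 and -0.16, against P05 means of -0.19 and -0.10. In the first and the third of these 4 windows P05 was the lower line, and in the other two it was P06. The highest window of P06, from 12.7 to 12.8 Mb, stood at 0.21 and 0.24 in plants 35 and 45, against 0.16 and 0.21 in plants 15 and 39. Those from 13.2, 16.3, 31.7 and 38.8 Mb had P06 means of 0.18, 0.18, 0.17 and 0.16, against P05 means of 0.15, 0.15, 0.17 and 0.15.

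The windows where P06 was farthest below P05 were those from 20.7, 42.4, 22.5, 33.5 and 10.5 Mb, with differences of -0.09, -0.08, -0.07, -0.06 and -0.06. The first stood at -0.13 and -0.18 in plants 35 and 45 of P06, against -0.09 and -0.04 in plants 15 and 39 of P05. P06 was farthest above P05 in the windows from 5.4, 9.9, 5.9, 7.4 and 5.5 Mb, by 0.09, 0.08, 0.08, 0.07 and 0.07. In the first of these, plants 35 and 45 of P06 stood at 0.02 and 0.06, against -0.01 and -0.09 in plants 15 and 39 of P05. All 5 windows of the second set lay in the first 10 Mb, and in 4 of them plant 39 was the lowest of the 4 plants. None of these 10 differences passed limma eBayes, with adjusted p from 0.16 to 0.24.

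A further 8 windows held 3 to 9 probes. One of them, from 6.3 to 6.4 Mb, is named after its values were seen, because it borders the gap of 370 kb. Its 5 probes averaged -0.65 and -0.73 in plants 35 and 45 of P06, against -0.68 and -0.77 in plants 15 and 39 of P05. With windows of 3 probes or more admitted, treat called it lower in P06 (adjusted p = 0.0013) and in P05 (adjusted p = 0.0068). Its probes were exceptionally bright, with a median Cy5 intensity of 86005. The difference between the lines there was 0.03 (95% interval -0.06 to 0.13).

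Short stretches were sought with an interval search that required at least 3 probes and a mean at least 0.5 from 0. In P06 it found 18 lower intervals with 133 probes, 0.231% of the chromosome's probes, beside 0.41% of all probes over the genome. It found 5 higher intervals with 27 probes, 0.0469%, beside 0.046%. In P05 it found 9 lower intervals with 70 probes, 0.122%, beside 0.232%, and 3 higher intervals with 11 probes, 0.0191%, beside 0.052%. These counts depend on single plants and on brightness. Without plant 45 there were 6 lower and 0 higher intervals in P06, and without plant 35 there were 16 and 1. Without plant 39 there were 3 lower and 0 higher intervals in P05, and without plant 15 there were 9 and 0. With the trend on brightness removed, P06 had 9 lower and 0 higher intervals and P05 had 2 lower and 2 higher. Of the 23 intervals of P06, 8 overlapped one of P05, and of the 12 intervals of P05, 8 overlapped one of P06. Overlaps over the genome are not given, so these do not show whether chromosome 13 differs from the others. The intervals were short: the longest of P06 was 14.3 kb, and none in either line had a mean of -2 or lower.

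Single plants gave 6 lower intervals in plant 35 and 16 in plant 45 of P06, against 3 in plant 15 and 9 in plant 39 of P05. The probes inside them made up 0.111%, 0.302%, 0.0469% and 0.221% of the chromosome, beside 0.26%, 0.395%, 0.152% and 0.201% of all probes. One higher interval was found, with 3 probes in plant 45, 0.00521% beside 0.0404%. The other plants had 0 higher intervals, beside 0.0133% (plant 35), 0.022% (plant 15) and 0.0392% (plant 39). Merged over the plants, these made 21 stretches, of which 14 were found in 1 plant only. All 20 lower stretches were nevertheless at or below -0.25 in all 4 plants, and no such share over the genome is given. The single higher one, from 34468757 to 34470887, was not shared: its 3 probes averaged -0.08 and 0.85 in plants 35 and 45 of P06, against -0.14 and 0.16 in plants 15 and 39 of P05.

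The interval with the most probes in P06, from 8430647 to 8441172, lies in the low window at 8.4 Mb. Its 17 probes, over 10.5 kb, averaged -0.98 and -0.996 in plants 35 and 45 of P06, against -0.81 and -1.14 in plants 15 and 39 of P05. Every one of them was low in every plant: the highest stood at -0.71, -0.77, -0.64 and -0.85 in plants 35, 45, 15 and 39. The 10 probes on either side averaged -0.02, 0.01, -0.04 and -0.11. The nearest probe to the left lay 12.5 kb away and the nearest to the right 49.9 kb away, so the ends of the stretch are known only to that distance. Median Cy5 intensity was 12048 inside the interval and 1025 in the flanks.

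**Figure D4:**
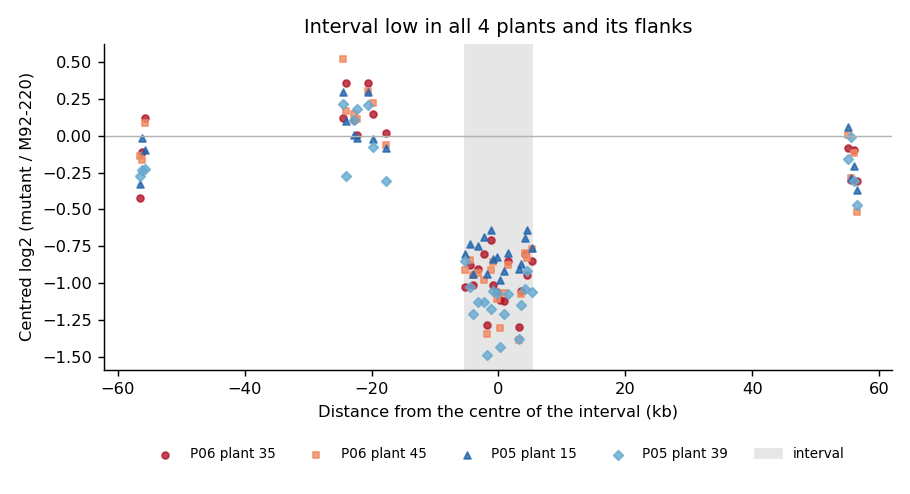
Centred log2 ratio of single probes in the 17-probe interval (grey) and within about 60 kb of it, against distance from its centre, by plant. The probes inside stand between -1.49 and -0.64 in all 4 plants, and the flanking probes between -0.51 and 0.52.

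The other 4 of the 5 intervals with the most probes were also low in every plant. The interval from 20719149 to 20725309 had 16 probes, at -0.54 and -0.66 in plants 35 and 45 of P06, against -0.42 and -0.38 in plants 15 and 39 of P05. Next came the interval from 20749308 to 20753416 with 13 probes, at -0.49 and -0.64 in the P06 plants, against -0.49 and -0.52 in the P05 plants. That from 1066728 to 1070983 had 12 probes, at -0.56 and -0.64 in the P06 plants, against -0.54 and -0.45 in the P05 plants. The interval from 15145242 to 15156640 had 10 probes, at -0.50 and -0.53 in the P06 plants, against -0.46 and -0.48 in the P05 plants. These intervals were chosen on the mean of P06, so the lower values of P06 in them describe the choice and were not tested. Their median Cy5 intensities were 1810, 3303, 1405 and 2012, each above that of the chromosome.

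Besides the 17-probe interval, 2 stretches were found separately in each of the 4 plants. That from 22746280 to 22748782 had 7 probes, at -1.03 and -1.15 in plants 35 and 45 of P06, against -0.84 and -1.26 in plants 15 and 39 of P05. That from 7358241 to 7359382 had 3 probes, at -1.09 and -1.13 in the P06 plants, against -0.95 and -1.01 in the P05 plants. Both were bright, with median Cy5 intensities of 25502 and 52803. Over the 20 lower stretches the lowest median Cy5 was 1405, above the 1055 of the chromosome as a whole. The 5 higher intervals of P06 were dim, with median Cy5 intensities of 82.7 to 389.5.

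Cy5 intensity and ratio ran together over the chromosome. Cy5 is also the denominator of the ratio, so error in Cy5 alone raises the dim classes and lowers the bright ones. How much of the trend this makes was not tested. The 722 probes with a Cy5 intensity under 100 had median ratios of 0.33, 0.38, 0.30 and 0.43 in plants 35, 45, 15 and 39. The 1333 probes of 5000 or more had medians of -0.17, -0.32, -0.16 and -0.30. The trend ran the same way on each array and was steeper for plants 45 and 39, 1 plant of each line. Cy3 held the mutant on every array, so a difference between the dyes and a difference between mutant and M92-220 cannot be told apart in a ratio that all 4 plants share. It is common to the lines in P06 minus P05 as far as the arrays share the trend. Bright probes were no more frequent here than elsewhere: 2.32% of chromosome 13 probes reached 5000, against 2.57% on the other chromosomes.

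**Figure D5:**
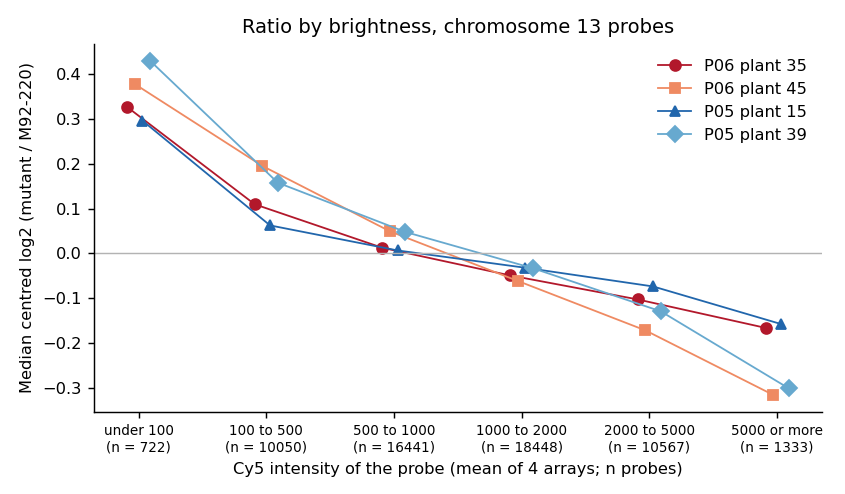
Median centred log2 ratio of chromosome 13 probes in 6 classes of Cy5 intensity (geometric mean of the 4 arrays), by plant. Medians are highest, between 0.30 and 0.43, for the dimmest probes and lowest, between -0.32 and -0.16, for the brightest. Cy5 is also the denominator of the ratio.

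Single probes far from 0 were rare. At or below -1 there were 33 and 46 probes in plants 35 and 45 of P06, against 11 and 52 in plants 15 and 39 of P05. These were 0.057%, 0.080%, 0.019% and 0.090% of the chromosome, against 0.23%, 0.25%, 0.10% and 0.15% on the other chromosomes. At or above 1 there were 50 and 55 probes in P06, against 59 and 82 in P05. These were 0.087%, 0.096%, 0.10% and 0.14% of the chromosome, against 0.13%, 0.14%, 0.14% and 0.21% on the other chromosomes. Of these high probes, 40, 41, 50 and 71 were not well above background in Cy5. At or below -2, plants 35 and 39 had 1 probe each, 0.0017% of the chromosome, and plants 45 and 15 had 0. On the other chromosomes the share was 0.14%, 0.14%, 0.062% and 0.044% in plants 35, 45, 15 and 39. At or above 2 there were 2 and 4 probes in plants 35 and 45 of P06, against 6 and 10 in plants 15 and 39 of P05. These were 0.0035%, 0.0069%, 0.010% and 0.017%, against 0.019%, 0.018%, 0.026% and 0.028% on the other chromosomes. Among probes with Cy5 well above background, the lowest on chromosome 13 stood at -2.10 and -1.68 in plants 35 and 45 of P06, against -1.45 and -2.95 in plants 15 and 39 of P05. Cy3 was not well above background at the probes of -2.10 and -2.95, so these are not measured folds. In plants 35, 45 and 15 the chromosome 8 probe was lower than any of these.

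In all 4 plants together, 4 probes were at or below -1 and 3 at or above 1. These were 0.0069% and 0.0052% of the chromosome, against 0.026% and 0.021% on the other chromosomes. The 4 low probes were bright, with a median Cy5 of 92787, and the 3 high ones were dim, with a median of 6.13 and Cy5 not well above background on any array. Limma's treat test against 1 called 1 probe lower in P06, beside 0.0875% over the genome, and 0 in P05, beside 0.00463%. At an unadjusted p under 0.05 it gave 4 lower and 16 higher probes in P05, beside 0.0307% and 0.0476%. In P06 it gave 12 lower and 11 higher, 0.0209% and 0.0191% of the chromosome's probes, and the share over the genome is not given. The probe called lower in P06 after adjustment was Gm_CUST_P12185006 at 44926635. It stood at -1.76 and -1.68 in plants 35 and 45 of P06, against -1.45 and -1.36 in plants 15 and 39 of P05 (limma treat adjusted p = 0.0023 in P06 and 0.40 in P05). Its Cy5 intensity was 74165, 75139, 65621 and 81996, and its 20 neighbours lay between -0.35 and 0.86. With the trend on brightness removed it stood at -1.48 in P06 and was not called (adjusted p = 0.66), and with the brightest 1% of probes left out 0 probes were called lower in P06. The count of lower probes in P06 changed with each single plant left out.

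One probe was called higher in both lines, beside 0.00841% over the genome in P06 and 0.00715% in P05. It was Gm_CUST_P12185487 at 45025775, at 1.99 and 2.34 in plants 35 and 45 of P06, against 2.85 and 2.69 in plants 15 and 39 of P05. Neither dye was well above background on any array, so the ratio has no fold that could be measured. For P06 minus P05 treat called 0 of 57545 probes, beside 0.0769% lower and 0.00021% higher over the genome. At an unadjusted p under 0.05 it gave 6 lower and 1 higher, beside 0.0922% and 0.00273%, and by limma eBayes 4 were lower and 4 higher after adjustment, beside 0.0954% and 0.00536%. The treat count depends on every plant. Without plant 15, treat called 8 probes lower and 2 higher, beside 0.153% and 0.0477% over the genome. Without plant 39 it called 4 lower and 0 higher, beside 0.0835% and 0.00242%. Without plant 35 it called 4 lower and 3 higher, beside 0.0797% and 0.00189%, and without plant 45 it called 2 lower and 0 higher, beside 0.0789% and 0.00105%. In these fits the single plant left in a line was assumed to vary like those of the other line.

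Isolated values were found on every array. Probe Gm_CUST_P12022336 at 14139200 stood at 1.45 in plant 35 and between 0.07 and 0.27 in the other plants. Probe Gm_CUST_P12074153 at 24859826 stood at 1.80 in plant 45 and between -0.41 and -0.18 in the others, with a Cy3 intensity of 12154 in plant 45 and of 1368 to 1501 elsewhere. Probe Gm_CUST_P12128079 at 34924414 stood at 3.65 in plant 15, where its Cy3 intensity was 539.7, against 8.03 to 11.9 elsewhere, not well above background. Plant 39 held the values farthest from 0. Probe Gm_CUST_P12013696 at 10974107 stood at -0.29 and -0.40 in plants 35 and 45 of P06, against -0.19 and 5.05 in plants 15 and 39 of P05. Its Cy3 intensity was 62902 in plant 39 and between 2288 and 2357 on the other arrays, and its 20 neighbours lay between -0.61 and 0.10. Probe Gm_CUST_P12010342 at 10139287 stood at -0.19 and -0.35 in plants 35 and 45 of P06, against -0.00041 and -2.95 in plants 15 and 39 of P05. There both dyes were dim in plant 39, at 8.47 in Cy3 and 65.7 in Cy5, against at least 1353 in either dye on the other arrays. Each of these 5 probes was 1 spot, so none describes a stretch of the chromosome.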

How the data were processed

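Leaf DNA of 4 mutant plants (Cy3) was compared with leaf DNA of M92-220 (Cy5) on 4 two-colour Agilent arrays, each on a slide of its own, with no dye swap. The authors scanned the arrays and extracted spots with Agilent Feature Extraction 12.0.0.7. The deposited scanner tables hold Cy3 and Cy5 intensity per spot, background-subtracted and dye-normalized per the file headers, and a log10 ratio of red over green with its error, which was used here for interval weights. The authors also deposited a table of log2 ratios. It equalled the ratios computed here up to a constant per array (-0.04, -0.04, -0.02 and -0.02 in plants 35, 45, 15 and 39) and served as an alternative. Of the tables' measurement columns, 0 could not be assigned to a plant.

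The log2 ratio of processed Cy3 over Cy5 was centred on the median of all probes of the array, with no loess or quantile step. Spots marked as outliers by the scanner software (244, 229, 210 and 861 over the whole array in plants 35, 45, 15 and 39) were left out, and repeated spots of a probe were averaged. Since all arrays held the mutant in Cy3, dye bias stays in each ratio and cancels in P06 minus P05 only as far as the arrays share it. A ratio tested against 0 leaves out the spread of M92-220 itself.

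Means in windows of 100 kb with at least 10 probes, single probes, and steps at 1 Mb boundaries with at least 500 probes on either side were each fitted over all 20 chromosomes with limma 3.58.1 in R 4.3.3. The fit had 1 mean per line and 1 shared spread. Treat was run against 0.25 for windows and steps and against 1 for probes. Test p-values were adjusted by the Benjamini-Hochberg method over the whole genome, with a threshold of 0.05, and intervals are 95%. The methods name ADM-2 (an interval caller of Agilent) without thresholds. Here an interval search modelled on it required a score of 6, at least 3 probes and a mean of 0.5 from 0. It ran in Python 3.11.15 (numba 0.67.0, pandas 2.3.3, numpy 2.4.6), and figures were drawn with matplotlib 3.10.9. Checks on simulated or permuted values covered the interval search and the limma fit, but not every procedure used here.

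Windows named in the text were the 5 lowest and 5 highest for P06 and for P06 minus P05. Intervals were named when among the 5 with the most probes in P06 or found in all 4 plants. Probes were named when called by treat or farthest from 0 in a plant with Cy5 well above background. The intervals found in all 4 plants and the probes farthest from 0 in a plant were added after their values were seen. Chromosome 13 and these lists were chosen with earlier results of these data known. Alternatives changed the centring, background correction, marked spots, dim probes, window size, test, interval settings and the plants included. Leaving out the brightest 1% of probes and removing a trend on brightness were chosen after seeing the data. The normexp alternative (offset 50) was run on median spot signals in place of the mean signals first intended. The precision is limited by the number of arrays, 2 per line.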

Additional observations from a re-analysis of the deposited data

Results flagged for a closer look

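In 2 of the windows and 1 of the steps chosen by the naming rule, both plants of P06 lay on one side of 0 and both plants of P05 on the other. In the window from 5.4 to 5.5 Mb, plants 35 and 45 of P06 stood at 0.02 and 0.06, against -0.01 and -0.09 in plants 15 and 39 of P05. The difference was 0.09 (0.088373, limma eBayes adjusted p = 0.18). In the window from 9.9 to 10 Mb, plants 35 and 45 of P06 stood at 0.03 and 0.07, against -0.0026 and -0.07 in plants 15 and 39 of P05. The difference was 0.08 (0.0818183, limma eBayes adjusted p = 0.18). The step at 10 Mb was -0.00044 and -0.0094 in plants 35 and 45 of P06, against 0.02 and 0.06 in plants 15 and 39 of P05. Its difference was -0.05 (-0.0471929, limma eBayes adjusted p = 0.32). None of the 3 differences passed the test. The same pattern, with no test of it, held at 8 of the 45 boundaries of chromosome 13 (17.8%, beside 4.72% of boundaries over the genome) and in 16 of its 424 windows (3.77%, beside 5.93%). Neighbouring boundaries share most of their probes. A check for a single sample far from its group was not made, since each line had 2 plants.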

How the results depend on the processing

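No paired analysis was possible because no plant number of P06 recurs in P05. A correction for the GC content of the probes and the dosage on either side of the placed break were not run, since no probe sequences and no genome of the build were used. Of 416 alternatives of single windows, probes and steps, 405 kept the side of the threshold. A change of direction was counted only for results that were called, so an uncalled value near 0 could change sign uncounted. The other named windows lay within the treat limit of 0.25, in P06 or in P06 minus P05 as named. Those closest to it were the windows from 6.1 Mb (-0.23) and 12.7 Mb (0.22) in P06. Without plant 35 the window from 6.1 Mb stood at -0.26. Treat does not call a mean inside its limit, so a side could change only if an alternative moved a window past 0.25. Where an alternative changed a value below, the cause was not tested. The counts below are of chromosome 13 alone, without the share over the genome. They compare settings and not chromosomes. The mean of the chromosome in P06 was -0.020 with no centring, -0.018 with normexp, -0.019 with the brightness trend removed and -0.0037 as a mean over windows of 100 kb. It was -0.015 to -0.010 in P06 and -0.010 to 0.0037 in P05 when 1 plant was left out. Lower windows in P06 numbered 0 without the brightest 1% of probes, with the trend removed and in windows of 500 kb. In P05 there was 1 lower window with normexp and 1 with windows of at least 3 probes. Against 0, limma eBayes called 146 lower and 141 higher windows in P06, and 137 and 143 in P05. Leaving out 1 plant gave 0 to 1 lower windows in P06 and in P05. The window from 8.4 to 8.5 Mb was not called in P06 with the trend removed (-0.46, limma treat adjusted p = 0.12), or with windows of at least 3 probes (adjusted p = 0.095). Lower probes in P06 numbered 0 without the brightest 1% and with the trend removed, 4 from the arrays of P06 alone, and 26 by eBayes with a mean beyond 1. Higher probes in P06 numbered 0 with normexp, with Cy5 well above background and with the trend removed, 7 from the arrays of P06 alone and 25 by eBayes. In P05, eBayes gave 18 lower and 44 higher probes. Higher probes in P05 numbered 0 with normexp, with Cy5 well above background and with the trend removed, and 4 from the arrays of P05 alone. For P06 minus P05, eBayes with a difference beyond 1 gave 4 lower probes. Leaving out 1 plant gave 2 to 4 lower and 3 to 7 higher probes in P06, 0 to 3 lower and 4 to 12 higher in P05, and 2 to 8 lower and 0 to 3 higher for P06 minus P05. The probe at 45025775 turned to -0.0597 in P06 and -0.15 in P05 with normexp. Lower intervals in P06 numbered 11 with normexp, 10 without the brightest 1%, 9 with the trend removed, 9 at a score of 8 and 111 at a mean of 0.25. In P05 they numbered 5, 5, 2, 4 and 95 under the same settings. Higher intervals in P06 numbered 0 with normexp, with the trend removed and at a score of 8, 70 at a mean of 0.25 and 19 with equal weights. In P05 they numbered 0 at a score of 8, 77 at a mean of 0.25 and 33 with equal weights. With 1 plant of a line there were 6 to 16 lower and 0 to 1 higher intervals in P06, and 3 to 9 lower and 0 higher in P05. Probes at or below -1 in all 4 plants numbered 1 with normexp, 0 without the brightest 1% and 0 with the trend removed, and 163 lay at or below -0.5. Probes at or above 1 numbered 0 with normexp, 0 with Cy5 well above background and 1 with the trend removed, and 69 lay at or above 0.5. The step at 10 Mb passed eBayes without plant 15 (-0.07, adjusted p = 0.0023). Under every alternative run, treat called 0 steps and 0 window differences between P06 and P05.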
